A study of Mus musculus with 18 samples.

Results

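The genes examined here set the supply of phosphate and pyrophosphate outside the cell and control where mineral forms. They were Alpl, Phospho1, Enpp1, Ank (also called Ankh), Slc20a1, Slc20a2, Mgp, Bglap and Bglap2, chosen by name for these roles. All 9 were found among the 55335 gene identifiers counted. They were followed in 18 bulk poly(A) RNA-seq libraries from O9-1 cells, an established mouse neural crest (NC) line, kept in osteogenic differentiation medium until day 2.5 (d2.5) or day 5 (d5). At each day 3 groups of 3 libraries were made. Ctrl+vehicle cells received control siRNA and no FGF2, Ctrl+FGF2 cells received control siRNA with FGF2, and Y/T dKD+FGF2 cells received siRNA pools against Yap and Taz (gene Wwtr1) with FGF2. The genotype was wild type throughout. Every library therefore came from 1 cell line, every cell had received siRNA, and knockdown without FGF2 was not analysed here. The questions were how FGF2 changed these genes during osteogenic differentiation, and how far Yap/Taz knockdown changed them while FGF2 was present.

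Mineral forms when calcium meets enough inorganic phosphate, and pyrophosphate blocks crystal growth. Enpp1, a membrane enzyme, makes pyrophosphate from extracellular nucleotides, and Ank helps to bring pyrophosphate or its ATP precursor out of the cell. Alpl, tissue-nonspecific alkaline phosphatase, removes pyrophosphate and releases phosphate at the cell surface and on matrix vesicles, and it is an early marker of the osteoblast lineage. Phospho1 releases phosphate from phospholipid head groups inside matrix vesicles. Slc20a1 (Pit1) and Slc20a2 (Pit2) are sodium-coupled carriers that take phosphate into cells. Mgp (matrix Gla protein) and the osteocalcins encoded by Bglap and Bglap2 are carboxylated in a vitamin K-dependent step; Mgp inhibits calcification, and osteocalcin is a late product of osteoblasts that binds bone mineral.

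The libraries held 10377151 to 14698525 reads assigned to genes, and no library stood apart in depth or in the share of reads on the expected strand (96.0% to 96.6%). Levels are given as counts per 1000000 reads (CPM) after TMM normalisation, and as CPM per kilobase of exon where genes are compared with each other. Yap1 lay between 65.2 and 69.5 CPM in the d2.5 knockdown libraries against 126 to 131 CPM in Ctrl+FGF2, and between 67.2 and 73.9 CPM against 147 to 159 CPM at d5. Wwtr1 lay between 130 and 142 CPM against 219 to 225 CPM at d2.5, and between 122 and 128 CPM against 213 to 218 CPM at d5. Transcripts of both targets were thus lower in every knockdown library than in Ctrl+FGF2 and were not lost. Wwtr1 was 138 to 142 CPM in d2.5 Ctrl+vehicle, and FGF2 raised it there (log2 fold change 0.65). Against vehicle, Wwtr1 in d2.5 knockdown cells overlapped and was not called (-0.06, adjusted p = 0.12, edgeR test described below). It was lower than vehicle at d5 (-0.89), and Yap1 was lower than vehicle at both days (-1.18 and -1.05). Of the 6 NC markers examined, Sox10 and Foxd3 had no reads in any library, whereas Tfap2a, Pax3, Snai2 and Twist1 were detected in all groups. The summed level of 6 osteoblast markers (Runx2, Sp7, Col1a1, Col1a2, Ibsp, Dlx5), nearly all of it Col1a1 and Col1a2, was 30650 to 30950 CPM in d2.5 Ctrl+vehicle, 8089 to 8290 CPM in d2.5 Ctrl+FGF2 and 7966 to 8279 CPM in d2.5 Y/T dKD+FGF2. At d5 the same sum was 68930 to 71520 CPM, 36850 to 41290 CPM and 48890 to 51270 CPM in that order of groups. FGF2 lowered all 6 of these markers at d2.5, and at d5 it lowered 4 and raised Runx2 and Sp7. Knockdown raised 2 (Ibsp and Sp7) and lowered 1 (Col1a1) at d2.5, and raised 5 at d5. Of all genes tested, 33.5% were called higher and 34.1% lower with FGF2 at d2.5, and 23.5% and 23.7% at d5. With knockdown the shares were 10.8% and 13.6% at d2.5 and 15.6% and 16.1% at d5. The marker counts in this paragraph stand beside these shares. The sum over 5 chondrocyte markers was 740.5 to 964.8 CPM in d2.5 Ctrl+vehicle, 117.4 to 129.8 CPM with FGF2 and 114.5 to 122.3 CPM with knockdown. FGF2 lowered all 5 at d2.5. At d5 the sum was 227.4 to 332.9 CPM, 332.3 to 437.8 CPM and 402 to 413.9 CPM in the same order of groups, the first 2 ranges overlapping, and FGF2 raised 3 of the markers and lowered 1. The 4 smooth muscle markers, mostly Acta2, summed to 167.2 to 230.5 CPM, 22.6 to 23.6 CPM and 13.7 to 15.3 CPM at d2.5 and to 2030 to 2144 CPM, 2672 to 3067 CPM and 2109 to 2270 CPM at d5. Of the 4 osteoclast and macrophage markers, Ptprc and Acp5 averaged under 0.1 CPM in all groups, Csf1r 0.0518 to 1.27 CPM, and Ctsk 46.6 CPM in d5 Ctrl+vehicle, 2.12 CPM in d5 Ctrl+FGF2 and 6.73 CPM in d5 Y/T dKD+FGF2. Of the 4 adipocyte markers, Adipoq and Plin1 averaged under 0.1 CPM in all groups, Pparg 12.3 to 18.8 CPM, and Fabp4 26.7 to 33.9 CPM at d2.5 and 4.59 to 7.84 CPM at d5. In such bulk libraries, fewer cells of a type and less RNA per cell cannot be told apart, and the part of these marker shifts in the results below was not tested.

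The osteocalcin genes need their sequences beside their counts, because the mouse genome carries near-identical copies side by side. In the GRCm38 build, Bglap lies at chr3:88383501-88384464, Bglap2 at chr3:88377736-88378699 and the third copy, Bglap3, at chr3:88368616-88372743, all on the minus strand. Their coding sequences from the annotated transcripts are printed here from start to stop codon, 288 bases each, with capitals at the positions where the 3 genes are not all alike.
Bglap: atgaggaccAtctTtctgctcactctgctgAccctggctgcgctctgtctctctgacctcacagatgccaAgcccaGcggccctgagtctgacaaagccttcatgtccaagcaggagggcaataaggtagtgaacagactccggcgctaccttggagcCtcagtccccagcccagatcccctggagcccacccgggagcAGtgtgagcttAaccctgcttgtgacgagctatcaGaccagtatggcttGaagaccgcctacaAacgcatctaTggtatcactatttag
Bglap2: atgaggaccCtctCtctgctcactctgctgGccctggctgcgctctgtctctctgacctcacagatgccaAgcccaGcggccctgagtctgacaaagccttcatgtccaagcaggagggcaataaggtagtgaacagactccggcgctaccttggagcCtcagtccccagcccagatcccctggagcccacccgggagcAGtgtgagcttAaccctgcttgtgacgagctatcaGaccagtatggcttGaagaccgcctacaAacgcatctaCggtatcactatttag
Bglap3: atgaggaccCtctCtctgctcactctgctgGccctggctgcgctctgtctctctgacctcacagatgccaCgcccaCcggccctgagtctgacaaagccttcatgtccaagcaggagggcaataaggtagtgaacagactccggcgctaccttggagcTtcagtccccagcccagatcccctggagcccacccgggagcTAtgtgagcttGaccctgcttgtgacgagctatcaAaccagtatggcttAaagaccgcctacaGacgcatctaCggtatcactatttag
Bglap and Bglap2 differed at 4 coding positions (98.6% identity), Bglap2 and Bglap3 at 9 (96.9%) and Bglap and Bglap3 at 13 (95.5%). Of all 100-base windows in the transcripts of Bglap and Bglap2, 38.7% and 57.0% also occurred in a copy. How reads that fit several copies were treated is not given in the sources used here. If such reads were left out of the gene counts, the counted levels of these genes are too low. Both their levels and the split of the counts between them are therefore uncertain.

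Phospho1 has no usable level here, because it overlaps another gene. It lies at chr11:95824499-95832140 on the plus strand, and 1818 of its 2029 exon bases (89.6%) are also annotated as exons of Zfp652 on the same strand, which leaves 211 bases that belong to Phospho1 alone on that strand. It had 0 to 4 reads per library and 20 reads over all 18, too few for any test. How reads over both genes were counted is not given in the sources used here, so nothing is said about its transcript level. The other 6 genes were little affected. Alpl (chr4:137741733-137796384, minus strand), Enpp1 (chr10:24637914-24712159, minus), Ank (chr15:27466677-27594909, plus), Slc20a2 (chr8:22476788-22569612, plus) and Mgp (chr6:136872435-136875823, minus) had under 1% of their 50-base windows in other genes' transcripts. Slc20a1 (chr2:129198764-129211616, plus) had 9.46%, through 2 genes of the opposite strand, which the stranded counts separate.

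RefSeq promoter windows in GRCm38.p6, from 250 bases before to 50 bases after a start site, were found for 6 of the 9 genes. Those of Alpl, Enpp1 and Bglap are printed 5′ to 3′ on the gene's strand, since these genes gave the largest differences described below. Capitals mark matches on either strand to the RUNX letters TGTGGT, the core bound by RUNX factors, which reads ACCACA on the other strand. They also mark the TATA-box letters TATAAA, which on the other strand read TTTATA.
Alpl, chr4:137766426-137766725, minus strand: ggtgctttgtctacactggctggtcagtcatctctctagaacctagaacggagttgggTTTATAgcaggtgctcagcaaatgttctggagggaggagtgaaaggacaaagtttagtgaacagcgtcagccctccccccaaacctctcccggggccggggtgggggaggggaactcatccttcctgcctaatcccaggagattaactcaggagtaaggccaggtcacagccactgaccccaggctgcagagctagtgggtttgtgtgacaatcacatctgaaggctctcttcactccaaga
Enpp1, chr10:24712110-24712409, minus strand: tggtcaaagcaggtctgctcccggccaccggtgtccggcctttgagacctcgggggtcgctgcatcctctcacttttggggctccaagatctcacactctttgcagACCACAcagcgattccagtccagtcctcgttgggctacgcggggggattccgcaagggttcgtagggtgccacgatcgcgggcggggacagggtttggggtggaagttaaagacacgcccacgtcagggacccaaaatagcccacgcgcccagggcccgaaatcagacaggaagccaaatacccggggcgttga
Bglap, chr3:88384417-88384716, minus strand: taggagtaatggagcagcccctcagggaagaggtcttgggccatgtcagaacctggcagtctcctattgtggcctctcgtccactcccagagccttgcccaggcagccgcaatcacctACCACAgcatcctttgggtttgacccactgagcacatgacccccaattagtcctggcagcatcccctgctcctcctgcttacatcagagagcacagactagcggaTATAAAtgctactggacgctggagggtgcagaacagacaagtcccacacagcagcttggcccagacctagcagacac
Bglap held a TATA match at -27 and a RUNX match at -132, and Enpp1 a RUNX match at -144, counted from the start site. The Alpl window held a TATA match on the opposite strand at -192, and none of the searched letters stood in the window of the upstream Alpl start (chr4:137796335-137796634) or in that of Ank. GGAATG, the core bound by TEAD factors, the DNA-binding partners of Yap and Taz, was absent from these 3 windows. It occurred 3 times in the window of a downstream Slc20a1 start (chr2:129206846-129207145), at -230, -198 and -96. The AP-1 letters TGANTCA were found in the Phospho1 window at -224, and the main Slc20a1 window held a RUNX match at -77 and a TATA match at -1. Among 32817 promoter windows of the same length, 14.7% held the TEAD letters, 16.8% the RUNX letters, 7.81% the AP-1 letters and 13.6% the TATA letters. A window with at least 1 match is therefore common for each motif. How often a window holds 3 matches, or a match at a given position, was not counted. The motifs do not overlap each other in these windows, and a match is a description of letters and not of a bound site.

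At d2.5, FGF2 moved every tested gene of the group, raising the pyrophosphate genes, the carriers and Mgp and lowering Alpl and Bglap2. Of the 7 genes tested, 5 were higher and 2 lower in Ctrl+FGF2 than in Ctrl+vehicle, where 33.5% of all 13677 genes tested were called higher and 34.1% lower. Knockdown in the presence of FGF2 raised 3 of the 7 at d2.5 (Enpp1, Ank and Mgp) and lowered 0, against 10.8% of all genes called higher and 13.6% lower. At d5, FGF2 was associated with 3 of 8 tested genes higher and 4 lower (background 23.5% higher and 23.7% lower of 13304 genes). Knockdown at d5 raised 6 of 8 and lowered 1 (background 15.6% higher and 16.1% lower). The 6 were Alpl, Enpp1, Ank, Mgp, Bglap and Bglap2, and the gene that fell was Slc20a2. Bglap did not pass the filter on low counts at d2.5 and Phospho1 passed at neither day. Alpl and Bglap2 passed it at d2.5 through the vehicle libraries alone, where they were high. The direction of their d2.5 calls against vehicle is therefore not independent of the filter. At d5, Bglap and Bglap2 passed it through the vehicle and knockdown libraries and not through those of Ctrl+FGF2. The direction of their d5 calls with FGF2 and with knockdown is likewise not independent of the filter. The FGF2 and the knockdown comparison of a day share the same Ctrl+FGF2 libraries, so their values are given side by side and are not independent of each other. A gene was called at an adjusted p under 0.05 in edgeR's quasi-likelihood test, with Benjamini-Hochberg adjustment over all genes tested.

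**Figure D1:**
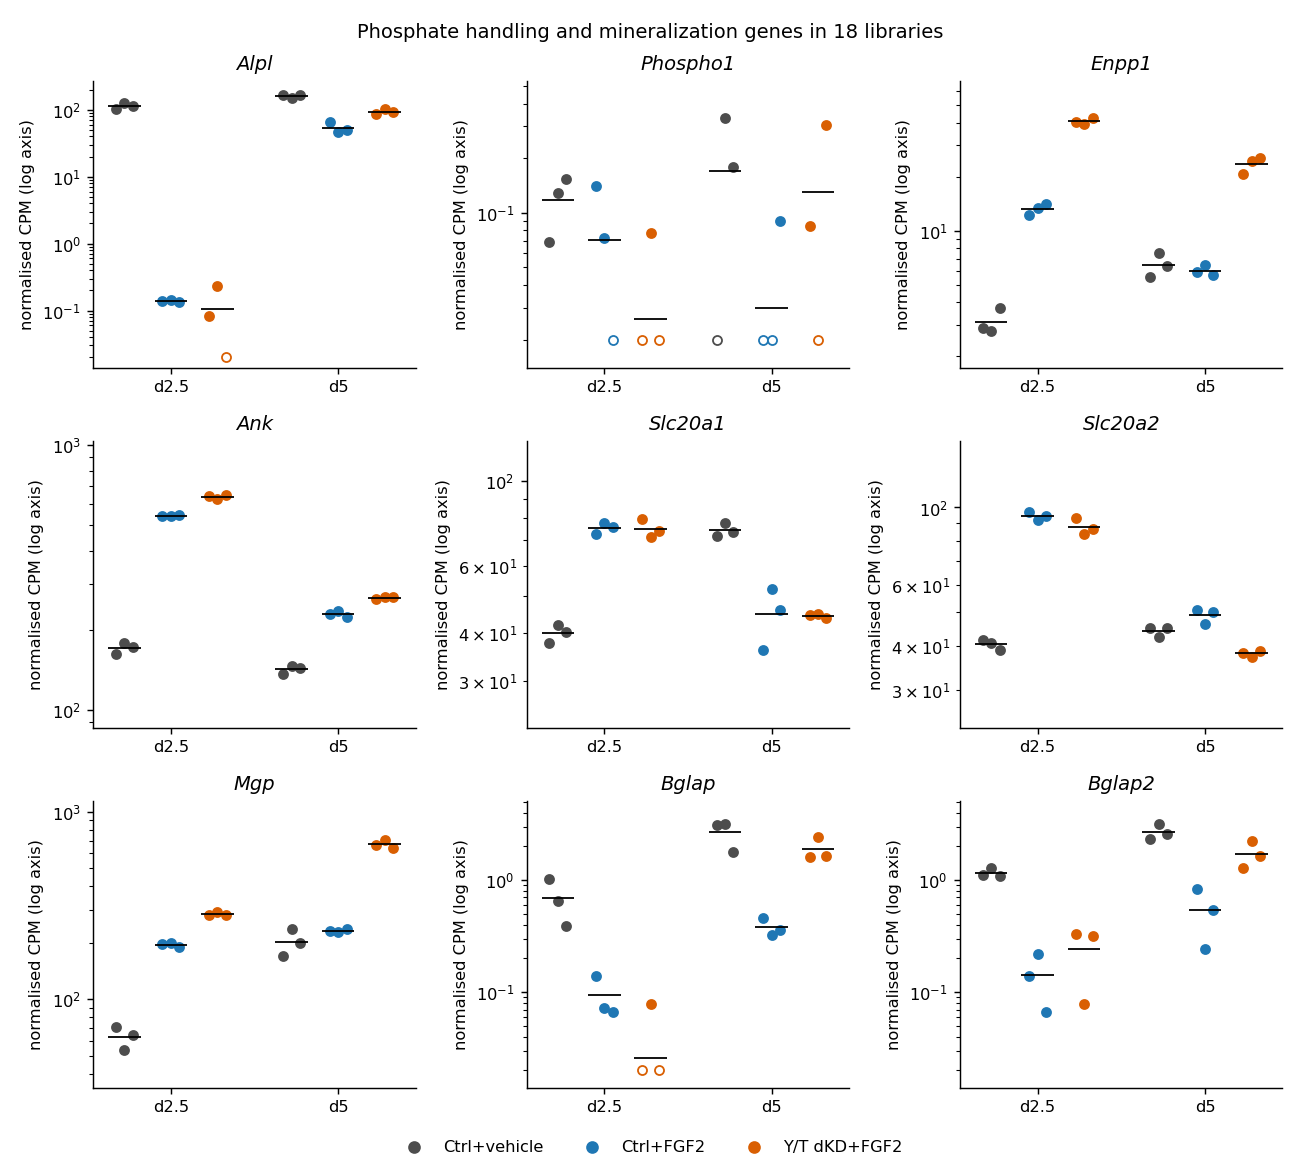
Level of each of the 9 genes in every library, in normalised CPM on a log axis, by day and group. Points are libraries, horizontal lines are means of 3, and open points at the bottom are libraries with 0 reads. Alpl in the FGF2-treated groups sits at or below 0.233 CPM at d2.5 and between 46.1 and 102 CPM at d5, and Mgp and Enpp1 are highest in the knockdown groups of each day.

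Alpl, which removes pyrophosphate, showed the largest change of the 9 genes. At d2.5 the 3 Ctrl+vehicle libraries held 103, 127 and 116 CPM (1489, 1971 and 1497 reads). Each of the Ctrl+FGF2 libraries held 2 reads (0.134 to 0.145 CPM), and the Y/T dKD+FGF2 libraries held 1, 3 and 0 reads. Alpl was therefore close to undetected in all 6 libraries given FGF2 and abundant in all 3 without it. Summed over libraries, 6 reads stood against 4957, an 826-fold lower level with a counting interval of 379-fold to 2251-fold (95%, exact, counting error only). The fitted log2 fold change was -9.61 (SE 0.17, adjusted p = 2.5e-29). This SE was derived from the F statistic and is narrower than the counting interval. It therefore understates the uncertainty of a value that rests on 6 reads. Knockdown left 4 reads against 6 (log2 fold change -0.38, SE 1.01, adjusted p = 0.83), and a difference between these groups was not detectable at this depth. The other alkaline phosphatase genes, Alpi, Akp3 and Alppl2, passed the filter on low counts in none of the comparisons.

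At d5 Alpl was present in every group. Ctrl+vehicle libraries held 169, 153 and 165 CPM, Ctrl+FGF2 libraries 66.8, 46.1 and 50.5 CPM, and Y/T dKD+FGF2 libraries 86.3, 102 and 91.9 CPM. The groups did not overlap, and the knockdown libraries lay between the other two groups. Alpl was 2.96-fold lower with FGF2 (log2 fold change -1.56, SE 0.09, adjusted p = 3.6e-10) and 1.71-fold higher after knockdown than in Ctrl+FGF2 (log2 fold change 0.78, SE 0.09, adjusted p = 5.6e-06). Knockdown cells with FGF2 were still 1.73-fold below Ctrl+vehicle (log2 fold change -0.79, SE 0.09, adjusted p = 8.3e-07). The FGF2 difference itself differed between the days by 8.01 on the log2 scale (SE 0.32, adjusted p = 8.3e-19). That value rests on the few d2.5 reads with FGF2, and its SE is too small for the same reason.

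Enpp1, which makes pyrophosphate, rose with knockdown at both days. At d2.5 the libraries held 2.90, 2.77 and 3.71 CPM in Ctrl+vehicle, 12.2, 13.5 and 14.2 CPM in Ctrl+FGF2, and 40.6, 39.3 and 42.7 CPM in Y/T dKD+FGF2. The levels thus stepped up from group to group without overlap. FGF2 raised Enpp1 4.25-fold (log2 fold change 2.09, SE 0.12, adjusted p = 1.5e-15), and knockdown raised it a further 3.05-fold (log2 fold change 1.61, SE 0.08, adjusted p = 7.9e-16).

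At d5 Enpp1 was not called with FGF2, and knockdown raised it again. Ctrl+vehicle libraries held 5.53, 7.49 and 6.37 CPM and Ctrl+FGF2 libraries 5.88, 6.43 and 5.65 CPM, which overlap (log2 fold change -0.10, SE 0.15, adjusted p = 0.59). Y/T dKD+FGF2 libraries held 20.7, 24.7 and 25.3 CPM, all above both control groups. The difference from Ctrl+FGF2 was 3.90-fold (log2 fold change 1.96, SE 0.12, adjusted p = 1.4e-09). The FGF2 difference was smaller at d5 than at d2.5 by 2.22 on the log2 scale (SE 0.20, adjusted p = 9.0e-11). The knockdown difference did not pass the test between days (0.35, SE 0.15, adjusted p = 0.096), and it passed only without replicate 1 of the d5 knockdown group (0.44, adjusted p = 0.034).

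Ank, the other gene of pyrophosphate supply, was the more abundant of the pair in every library. At d2.5 it stood at 163, 179 and 173 CPM in Ctrl+vehicle, at 542, 542 and 544 CPM in Ctrl+FGF2, and at 644, 628 and 648 CPM in Y/T dKD+FGF2. FGF2 raised it 3.13-fold (log2 fold change 1.65, SE 0.03, adjusted p = 2.6e-27), and knockdown added a small rise of 1.17-fold (log2 fold change 0.23, SE 0.03, adjusted p = 2.9e-06). At d5 the levels were 137, 147 and 144 CPM, then 230, 236 and 225 CPM, then 262, 267 and 266 CPM in the same order of groups. The order was that of d2.5, again without overlap, and both steps were called (FGF2: log2 fold change 0.71, SE 0.04, adjusted p = 1.4e-10; knockdown: 0.20, SE 0.04, adjusted p = 0.00042). The FGF2 difference shrank by 0.97 on the log2 scale from d2.5 to d5 (SE 0.05, adjusted p = 8.9e-16), and that of knockdown did not pass the test between days (-0.04, SE 0.05, adjusted p = 0.68).

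Set against each other per kilobase of exon, the enzyme that removes pyrophosphate and the enzyme that makes it changed places with FGF2 at d2.5, whereas at d5 Alpl stood above Enpp1 in all 9 libraries. The level of Alpl divided by that of Enpp1 in the same library was 79.3 to 117 in d2.5 Ctrl+vehicle, 0.0240 to 0.0292 in d2.5 Ctrl+FGF2 and 0 to 0.0151 in d2.5 Y/T dKD+FGF2. At d5 it was 51.9 to 77.6, 18.3 to 28.9 and 9.22 to 10.6 in the same order. Alpl and Enpp1 were both higher after knockdown at d5 than in Ctrl+FGF2, and the ratio was lower in all 3 knockdown libraries because the fold change of Enpp1 exceeded that of Alpl. Ank exceeded Enpp1 133-fold to 184-fold in d2.5 Ctrl+vehicle and 29.8-fold to 36.0-fold in d5 Y/T dKD+FGF2, the highest and lowest groups on this ratio. In d5 Ctrl+vehicle, Alpl and Ank stood at like levels per kilobase (ratio 0.933 to 1.10). These ratios of transcripts are descriptions and were not tested.

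**Figure D2:**
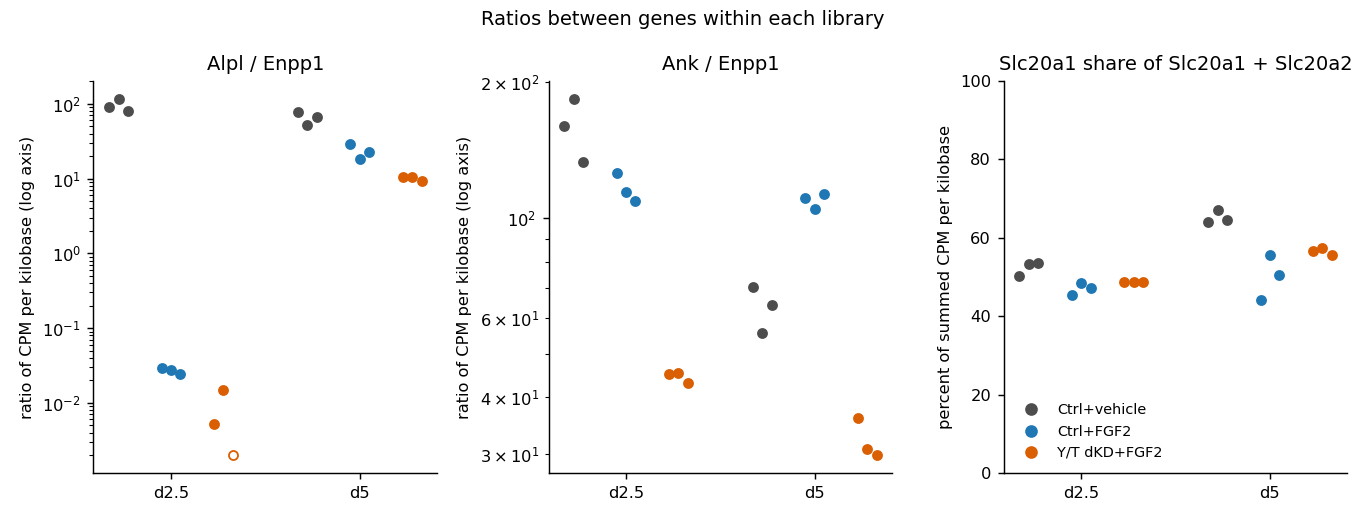
Ratios between genes within each library, from CPM per kilobase of exon: Alpl over Enpp1 and Ank over Enpp1 on log axes, and Slc20a1 as a percentage of Slc20a1 plus Slc20a2 on a linear axis. Each point is 1 library, and the open point marks the library with 0 Alpl reads. The Alpl to Enpp1 ratio falls from 79.3 to 117 in d2.5 Ctrl+vehicle to 0.0292 or less in the other d2.5 groups, and at d5 it is lowest in Y/T dKD+FGF2 (9.22 to 10.6).

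The phosphate carriers responded to FGF2 in a way that depended on the day, and with knockdown Slc20a2 was called, at d5. Slc20a1 stood at 37.8, 42.0 and 40.4 CPM in d2.5 Ctrl+vehicle. The d2.5 Ctrl+FGF2 libraries held 72.7, 77.6 and 75.8 CPM and the d2.5 Y/T dKD+FGF2 libraries 79.6, 71.6 and 73.8 CPM, so that both FGF2-treated groups lay above vehicle and overlapped each other. FGF2 raised it 1.87-fold (log2 fold change 0.90, SE 0.05, adjusted p = 6.3e-16), and the difference with knockdown was -0.02 (SE 0.05, adjusted p = 0.85). At d5 the direction was the opposite. Ctrl+vehicle held 71.7, 77.6 and 73.7 CPM, Ctrl+FGF2 36.2, 52.2 and 46.0 CPM, and Y/T dKD+FGF2 44.7, 45.0 and 43.8 CPM. FGF2 lowered Slc20a1 1.64-fold (log2 fold change -0.71, SE 0.08, adjusted p = 2.2e-06), with -0.02 for knockdown (SE 0.09, adjusted p = 0.89). The change of the FGF2 difference between days was -1.64 (SE 0.10, adjusted p = 3.2e-14).

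Slc20a2 began like its relative. It stood at 41.8, 40.9 and 39.0 CPM in d2.5 Ctrl+vehicle, at 96.9, 92.1 and 94.4 CPM in Ctrl+FGF2, and at 93.0, 83.8 and 86.6 CPM in Y/T dKD+FGF2. FGF2 raised it 2.31-fold (log2 fold change 1.21, SE 0.05, adjusted p = 5.7e-20). The knockdown difference missed the threshold (log2 fold change -0.12, SE 0.04, adjusted p = 0.0526), and it passed without d2.5 vehicle replicate 1, without d2.5 vehicle replicate 2 or without d2.5 knockdown replicate 1 (-0.12, -0.12 and -0.16).

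At d5 Slc20a2 stood at 45.1, 42.4 and 45.0 CPM in Ctrl+vehicle, at 51.0, 46.3 and 50.2 CPM in Ctrl+FGF2, and at 38.3, 37.4 and 38.8 CPM in Y/T dKD+FGF2. Knockdown lowered it 1.29-fold (log2 fold change -0.37, SE 0.06, adjusted p = 7.9e-05), to below the vehicle libraries as well (log2 fold change -0.20, SE 0.06, adjusted p = 0.0095). The small FGF2 difference was called (log2 fold change 0.17, SE 0.06, adjusted p = 0.022). That call was lost with DESeq2 (adjusted p = 0.13), without the filter on low counts (0.052), without vehicle replicate 2 (0.093), without FGF2 replicate 1 (0.084) and without FGF2 replicate 3 (0.082). The FGF2 difference in Slc20a2 was smaller at d5 by 1.07 on the log2 scale (SE 0.08, adjusted p = 3.5e-13), and that of knockdown was more negative at d5 by 0.26 (SE 0.07, adjusted p = 0.012).

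The balance between the carriers shifted with these changes. Slc20a1 made up 50.2% to 53.6% of the summed level per kilobase in d2.5 Ctrl+vehicle, 45.5% to 48.4% in Ctrl+FGF2 and 48.7% to 48.8% in Y/T dKD+FGF2. At d5 the share was 63.9% to 67.1%, 44.2% to 55.7% and 55.7% to 57.3%. The vehicle libraries had the highest share at each day. These shares were not tested.

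Mgp, the calcification inhibitor, rose with knockdown at both days, and more at d5. At d2.5 the libraries held 71.3, 54.0 and 64.3 CPM in Ctrl+vehicle, 197, 199 and 189 CPM in Ctrl+FGF2, and 281, 291 and 280 CPM in Y/T dKD+FGF2. FGF2 raised Mgp 3.07-fold (log2 fold change 1.62, SE 0.05, adjusted p = 6.6e-22) and knockdown a further 1.45-fold (log2 fold change 0.53, SE 0.05, adjusted p = 9.1e-10). At d5, Y/T dKD+FGF2 libraries held 666, 711 and 640 CPM, far above the 231, 227 and 236 CPM of Ctrl+FGF2. The difference was 2.90-fold (log2 fold change 1.54, SE 0.07, adjusted p = 5.0e-11), and it exceeded that at d2.5 by 1.00 on the log2 scale (SE 0.10, adjusted p = 1.6e-08).

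In d5 Ctrl+vehicle, Mgp stood at 170, 236 and 199 CPM and overlapped Ctrl+FGF2. The FGF2 difference was called (log2 fold change 0.21, SE 0.08, adjusted p = 0.033), but the call was lost with DESeq2 (adjusted p = 0.17), without vehicle replicate 1 (log2 fold change 0.10, adjusted p = 0.18), without vehicle replicate 3 (0.098) and without FGF2 replicate 3 (0.10). Without knockdown replicate 1 it stood just inside the threshold (adjusted p = 0.05 as rounded). Without vehicle replicate 2 the value was 0.33. The change of the FGF2 difference between days was -1.44 (SE 0.11, adjusted p = 1.6e-12). Per kilobase of exon, Mgp had the highest mean of the 9 genes in every group, although its libraries overlapped those of Ank in d2.5 Ctrl+vehicle (45.5 to 60.1 against 45.2 to 49.6 CPM per kilobase).

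The osteocalcin genes had few counted reads in all libraries, and these counts moved in the same directions as Alpl at d5. Bglap had 15, 10 and 5 reads in d2.5 Ctrl+vehicle, 2, 1 and 1 in Ctrl+FGF2, and 0, 1 and 0 in Y/T dKD+FGF2, and it was not tested at d2.5. Bglap2 had 16, 20 and 14 reads, then 2, 3 and 1, then 4, 1 and 4. Every library given FGF2 lay below every vehicle library for both genes. For Bglap2 the FGF2 difference was called (log2 fold change -2.99, SE 0.47, adjusted p = 1.8e-06) and that of knockdown did not pass (0.73, SE 0.70, adjusted p = 0.49).

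At d5, Bglap had 31, 38 and 20 reads in Ctrl+vehicle, 5, 4 and 4 in Ctrl+FGF2, and 19, 29 and 16 in Y/T dKD+FGF2. Bglap2 had 23, 38 and 29, then 9, 3 and 6, then 15, 27 and 16. For both genes the Ctrl+FGF2 libraries were the lowest, without overlap with either of the other groups. Both passed the filter on low counts through those other groups, so the directions of the calls that follow are not independent of it. FGF2 lowered Bglap 6.86-fold (log2 fold change -2.78, SE 0.36, adjusted p = 6.1e-06) and Bglap2 5.04-fold (log2 fold change -2.33, SE 0.34, adjusted p = 2.4e-05). Knockdown raised Bglap 4.88-fold over Ctrl+FGF2 (log2 fold change 2.29, SE 0.39, adjusted p = 2e-04) and Bglap2 3.22-fold (log2 fold change 1.69, SE 0.38, adjusted p = 0.0023).

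Against Ctrl+vehicle, knockdown cells with FGF2 at d5 differed by -0.49 for Bglap (SE 0.25, adjusted p = 0.13) and by -0.64 for Bglap2 (SE 0.26, adjusted p = 0.0597), neither of which passed. Bglap passed without vehicle replicate 3 (-0.72, adjusted p = 0.031). Bglap2 passed without FGF2 replicate 1 (adjusted p = 0.048), without FGF2 replicate 2 (0.043) and without knockdown replicate 2 (-0.91, adjusted p = 0.03), without the filter on low counts (0.044) and with all 18 libraries in 1 fit (0.042).

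Because the copies share sequence, the test was repeated on Bglap, Bglap2 and Bglap3 counts summed. Summing removes the split between the copies, but it cannot bring back any reads left out of the gene counts. The sum was 81, 14 and 15 reads in the d2.5 groups and 182, 32 and 122 in the d5 groups, in the order vehicle, FGF2 and knockdown. Bglap3 added 0 to 2 reads per library. Like the single genes, the sum passed the filter on low counts through the groups where it was high. The sum fell with FGF2 at d2.5 (log2 fold change -2.51, SE 0.35, adjusted p = 1.6e-07) and at d5 (-2.53, SE 0.28, adjusted p = 8.5e-07). It rose with knockdown at d5 (1.94, SE 0.30, adjusted p = 7.6e-05) and was not called at d2.5 (0.27, SE 0.51, adjusted p = 0.75). At d5 it was lower in knockdown cells than in vehicle cells (-0.59, SE 0.21, adjusted p = 0.03), although the groups overlapped.

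**Figure D3:**
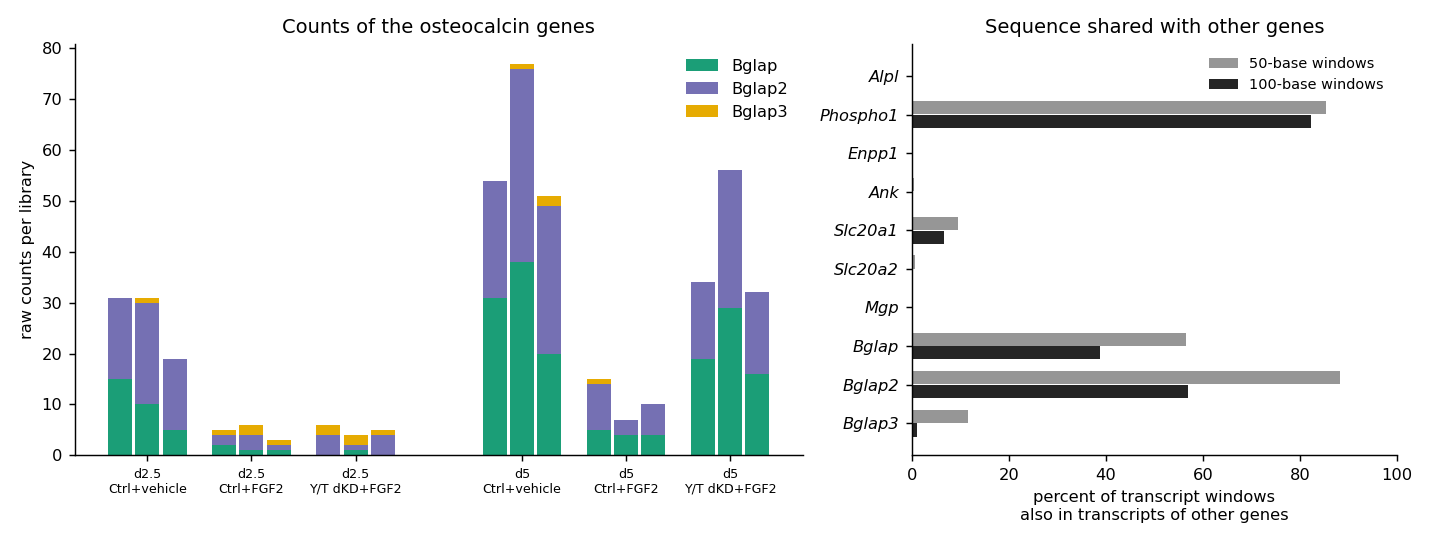
Left: raw reads of Bglap, Bglap2 and Bglap3 in each of the 18 libraries, stacked, on a linear axis from 0. Right: percentage of 50-base and 100-base windows of each gene's transcripts that also occur in transcripts of other genes. The summed counts are lowest in both FGF2-treated groups at d2.5 (3 to 6 reads) and in Ctrl+FGF2 at d5 (7 to 15), and Phospho1, Bglap and Bglap2 share the largest part of their sequence.

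Compared directly with Ctrl+vehicle, knockdown cells with FGF2 did not match vehicle cells at either day. At d2.5, 5 of 7 tested genes were higher and 2 lower (background 34.1% and 35.7%). The 5 higher genes were Enpp1 (13.0-fold), Mgp (4.44-fold), Ank (3.67-fold) and the carriers Slc20a2 (2.13-fold) and Slc20a1 (1.845-fold). Alpl was far below vehicle there, with 4 reads against 4957. At d5, 3 of 8 were higher and 3 lower (background 20.7% and 21.1%). The 3 higher genes were Enpp1 (3.62-fold), Mgp (3.34-fold) and Ank (1.87-fold). The 3 lower genes were Alpl (1.73-fold), Slc20a1 (1.66-fold) and Slc20a2 (1.15-fold).

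**Figure D4:**
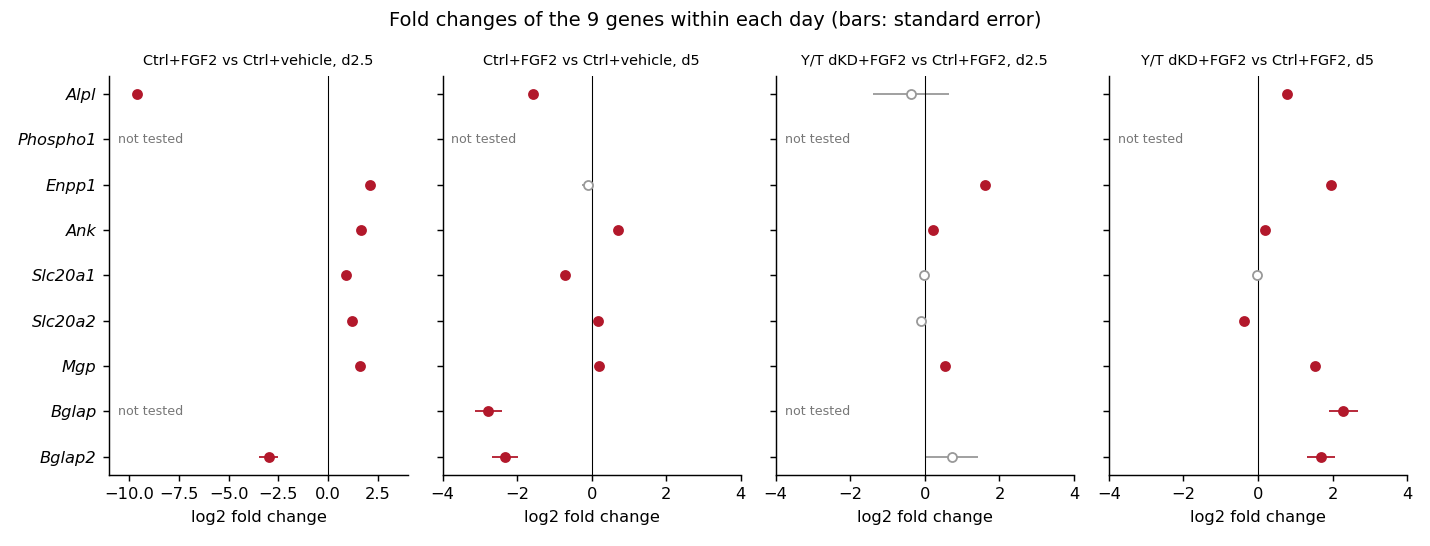
Fitted log2 fold changes of the 9 genes within each day, FGF2 against vehicle (left pair) and knockdown against Ctrl+FGF2 (right pair), with bars of 1 standard error. Filled red points passed an adjusted p of 0.05, open grey points did not, and the first panel has a wider axis. Alpl lies at -9.61 with FGF2 at d2.5, where its bar is narrower than the counting error, and at -1.56 at d5. Enpp1 and Mgp are raised by knockdown at both days (Enpp1 1.61 and 1.96, Mgp 0.53 and 1.54).

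When the change of each effect between the days was tested, that of FGF2 passed for 6 of 8 genes, 1 more positive at d5 (Alpl) and 5 more negative, against a background of 31.8% and 29.1% of 14198 genes. The osteocalcin genes did not pass (Bglap -0.02, adjusted p = 0.95; Bglap2 0.62, adjusted p = 0.43). That of knockdown passed for 2 of 8, Mgp more positive and Slc20a2 more negative (background 11.6% and 9.35%). For Bglap the knockdown difference was larger at d5 by 3.79, which rested on 1 read in the d2.5 knockdown group and stood at the threshold (adjusted p = 0.05, not called). It passed in 6 of 18 fits that left out 1 library, namely without replicate 1 or 3 of d2.5 vehicle, replicate 2 of d2.5 knockdown (where the value was 5.66), or replicate 1, 2 or 3 of d5 vehicle.

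Levels at d5 were also set against those at d2.5 within each group, although the labels give each day as its own batch, so that time and batch cannot be told apart. In Ctrl+vehicle 6 of 8 genes were higher at d5 and 1 lower (background 33.1% and 33.2%). The rises were Bglap (3.81-fold), Mgp (3.21-fold), Bglap2 (2.32-fold), Enpp1 (2.10-fold), Slc20a1 (1.86-fold) and Alpl (1.41-fold), and the fall was Ank (1.21-fold). Slc20a2 did not pass (log2 fold change 0.12, adjusted p = 0.061), though it passed without d5 vehicle replicate 2 (0.15, adjusted p = 0.04). In Ctrl+FGF2, 4 genes were higher and 4 lower (background 41.2% and 38.8%), and in Y/T dKD+FGF2 likewise 4 and 4 (background 40.3% and 38.1%). In both FGF2-treated groups the 4 higher were Alpl, Mgp, Bglap and Bglap2 and the 4 lower were Enpp1, Ank, Slc20a1 and Slc20a2. Alpl went from 6 reads to 1858 in Ctrl+FGF2, a 387-fold rise (counting interval 178-fold to 1057-fold), and from 4 to 3142 in Y/T dKD+FGF2, an 879-fold rise (343-fold to 3227-fold). The osteocalcin rises in Ctrl+FGF2 (log2 fold change 1.91 for Bglap and 1.84 for Bglap2) rested on few reads. That of Bglap was lost without d2.5 FGF2 replicate 2 (1.78), d2.5 FGF2 replicate 3 (1.72) or d5 FGF2 replicate 1 (1.77), and that of Bglap2 without d5 FGF2 replicate 1 (1.40).

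Other genes of the same processes were taken from lists set by role. Over all genes tested, the median log2 fold change was between 0.0013 and 0.016 in the FGF2 and knockdown comparisons of both days, which is the level the list medians stand beside. Among 13 genes of the mineral-binding matrix, 9 were tested at d2.5, of which FGF2 raised 3 and lowered 6 (median log2 fold change -1.22). Dmp1, an acidic phosphoprotein of bone matrix, rose most (log2 fold change 5.25, SE 0.05), and Col1a1, the main collagen chain of bone, fell most (-2.53, SE 0.03). At d5 FGF2 raised 4 of 10 and lowered 6 (median -0.84), with Mepe highest (2.12, SE 0.81) and Matn3 lowest (-2.25, SE 0.48). Both had low levels. Mepe averaged 0.175 CPM in d5 Ctrl+vehicle and 0.846 CPM in d5 Ctrl+FGF2, with overlapping libraries. Matn3 averaged 2.04 and 0.389 CPM in the same 2 groups. Knockdown raised 5 of 9 and lowered 2 at d2.5 (median 0.33), and raised 7 of 10 and lowered 1 at d5 (median 0.55). Dmp1 rose most at both days (1.10 and 3.25), and Gsn, an actin-severing protein, fell most at both (-0.22 and -0.52).

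The pyrophosphate and nucleotide list held 15 genes, of which 10 were tested at d2.5 and 11 at d5. FGF2 raised 2 and lowered 4 at d2.5, led by the inorganic pyrophosphatase Ppa1 (log2 fold change 0.49) and by Enpp2 (-1.70), a relative of Enpp1 better known as autotaxin. At d5 FGF2 raised 5 and lowered 3, led by Enpp5 (1.31) and Enpp2 (-2.42). Knockdown raised 2 and lowered 0 at d2.5, with Enpp3 the highest (0.62), and raised 3 and lowered 3 at d5, led by Enpp2 (1.16) and Enpp5 (-0.93). The median of the list was -0.21 and 0.06 for FGF2, and 0.11 and 0.11 for knockdown, at d2.5 and d5. Enpp1 thus rose more with knockdown at each day than any tested gene of that list.

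Only 3 of 10 other genes of phosphate transport and export were tested. FGF2 raised 1 (Slc25a3, the mitochondrial phosphate carrier, 0.17) and lowered 2 at d2.5, with Slc37a2 the lowest (-1.17), and lowered 1 at d5, the phosphate exporter Xpr1 (-0.18). Knockdown raised 1 at each day, Xpr1 at d2.5 (0.19) and Slc37a2 at d5 (1.02). All 10 matrix vesicle genes were tested. FGF2 raised 5 and lowered 3 at d2.5, led by Anxa1 (1.16) and the choline transporter Slc44a1 (-1.66), and raised 3 and lowered 3 at d5, led by the sphingomyelinase gene Smpd3 (1.82) and the choline kinase gene Chka (-0.30). Knockdown raised 3 and lowered 3 at d2.5, led by Anxa1 (0.45) and Smpd3 (-0.36), and raised 1 (Slc44a1, 0.18) and lowered 4 at d5, with Smpd3 the lowest (-1.03).

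For the vitamin K-dependent step that Mgp and osteocalcin need, 7 genes were tested. FGF2 raised 1 and lowered 5 at d2.5 (median log2 fold change -0.81), with Vkorc1l1 highest (0.21) and Pros1 lowest (-1.37), and raised 2 and lowered 2 at d5, led by Aifm2 (0.41) and the carboxylase gene Ggcx (-0.17). Knockdown raised Vkorc1l1 alone at d2.5 (0.15) and lowered Gas6, itself a carboxylated protein, alone at d5 (-1.26). Of 17 genes of the phosphate hormone axis, 11 were tested. FGF2 raised 6 and lowered 4 at d2.5, led by Galnt3, which protects the phosphate hormone FGF23 from cleavage (2.67), and the parathyroid hormone receptor Pth1r (-5.37). It raised 4 and lowered 6 at d5, led by Slc9a3r1 (1.03) and Galnt3, now the lowest (-2.65). Knockdown raised 4 and lowered 1 at d2.5 and raised 5 and lowered 4 at d5. Fam20c, the kinase of secreted matrix phosphoproteins, rose most at both days (0.78 and 1.57), and the lowest were Stc2 (-0.27) and the vitamin D receptor Vdr (-0.47).

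Among 10 osteoblast transcription factors, FGF2 raised 1 of 9 tested and lowered 6 at d2.5 (median -1.13), with Atf4 at 0.71 and Dlx5 at -4.13, and raised 2 of 8 and lowered 4 at d5, with Runx2 at 0.40 and Atf4 at -1.55. Knockdown raised 3 and lowered 1 (Atf4, -0.19) at d2.5, and raised 4 and lowered 0 at d5. Sp7, the osterix gene, rose most with knockdown at both days (0.46 and 0.65). In each of these lists the counts stand beside the background shares given above for the same comparisons.

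The genes whose pattern over the 18 libraries lay nearest to that of each member were found by the root mean square (RMS) difference of centred log2 CPM among 11729 genes. Alpl, with an SD of 4.16 over the libraries, was nearest to Col2a1, C1qtnf3 and Fmod (RMS difference 1.01 to 1.04). Col2a1, the cartilage collagen gene, averaged 460 CPM in d2.5 Ctrl+vehicle, 0.984 CPM in d2.5 Ctrl+FGF2 and 2.95 CPM in d2.5 Y/T dKD+FGF2. At d5 it averaged 213, 236 and 292 CPM in the same order of groups and was not called with FGF2 (log2 fold change 0.15, SE 0.13, adjusted p = 0.36), whereas Alpl was called lower with FGF2 on that day. Enpp1 (SD 1.28) was nearest to Lrfn5, Spry4 and Dusp6 (0.568 to 0.587), the latter pair being known feedback inhibitors of FGF and ERK signalling. Mgp (SD 1.04) was nearest to Col18a1, Fam20c and Chst15 (0.280 to 0.388). Ank (SD 0.827) was nearest to Aig1, Mndal and Csgalnact1 (0.171 to 0.209), Slc20a1 (SD 0.428) to Agap1, 0610010F05Rik and Dnajc21 (0.144 to 0.159), and Slc20a2 (SD 0.542) to Ptgs1, Pcgf5 and Sipa1l2 (0.123 to 0.132). Phospho1, Bglap and Bglap2 were too low for this comparison.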

How the data were processed

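RNA from O9-1 cells was purified with a column kit, and poly(A) libraries were made with the SMARTER mRNA-Seq kit. The authors deposited raw counts per gene, 1 file per library. Their processing notes name FastQC, STAR, Picard, featureCounts and the mm10 build, with roles and versions not given in the sources used here. The layout has unstranded, forward and reverse counts, and reverse counts were used. Rows naming no gene (27.0% to 34.4% of reads) were left out. Gene names and exon lengths came from GENCODE M21 (55154 of 55335 identifiers matched) and promoters from RefSeq. The test was that of edgeR 4.0.16, run under R 4.3.3 (TMM, filterByExpr with a minimum count of 10, quasi-likelihood test, Benjamini-Hochberg adjustment, threshold 0.05), using the 9 libraries of a day for group comparisons and all 18 for comparisons of days. An SE is the size of a log2 fold change over the root of its F statistic. It is too small for Alpl against vehicle at d2.5, where the change is large and few reads stand behind it. The scripts were tested on simulated data. The labels do not say that replicates were separate cultures, so p-values measure the spread between these samples. No 2 libraries of the same group agreed within sampling noise, though some came close. The chi-square per degree of freedom, near 1 for sampling noise alone, was lowest for d2.5 Ctrl+FGF2 replicates 1 and 3 (1.25). It was highest for d5 Ctrl+vehicle replicates 1 and 2 (6.41). The genes and lists were chosen with earlier results of these data known. Text named every member, the called gene with the largest rise and fall of each list, and 3 genes of nearest pattern (mean log2 CPM of at least 1, prior count 2). Alternatives were DESeq2 1.42.0, other size factors, no filter, a replicate block, unstranded counts, all libraries in 1 fit, summed osteocalcin counts and each library left out.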

Additional observations from a re-analysis of the deposited data

Results flagged for a closer look

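For 8 results the effect of a treatment differed between d2.5 and d5 by a test of the difference itself (edgeR, interaction of treatment and day, log2 scale, d5 minus d2.5). The FGF2 difference changed by 8.01 for Alpl, by -2.22 for Enpp1, by -0.97 for Ank, by -1.64 for Slc20a1, by -1.07 for Slc20a2 and by -1.44 for Mgp. Slc20a1 is the gene among these with a called rise at d2.5 and a called fall at d5. The knockdown difference changed by 1.00 for Mgp and by -0.26 for Slc20a2. Each day was its own batch in the labels, and each effect was taken within a day.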

How the results depend on the processing

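In each of the 11 comparisons, the number of genes called and the number of the 9 genes called stayed within 1.5 times the reported count with DESeq2, other size factors, no filter, the block, unstranded counts and each library left out, and, for comparisons within a day, with all libraries in 1 fit. Summed osteocalcin counts gave values for Bglap and Bglap2 only. Of 1611 repeats for single genes, 1554 kept direction and side of the threshold, 21 passed only in the repeat, 15 lost the call and 21 changed sign. All 21 sign changes were of uncalled values, between -0.38 and 0.62 as reported, and the cause was not tested. Leaving out 1 library gave 0.18 for Alpl and 0.0049 to 0.011 for Slc20a1 with knockdown at d2.5, 0.017 for Enpp1 with FGF2 at d5, 0.11 for Slc20a1 with knockdown at d5, 0.019 to 0.36 for the FGF2 effect on Bglap between days, and 0.0023 to 0.12 for the knockdown effect on Slc20a1 between days. Over all such fits these ranged from -1.60 to 0.18, -0.058 to 0.011, -0.20 to 0.02, -0.15 to 0.11, -0.42 to 0.36 and -0.14 to 0.12. The FGF2 effect on Bglap between days was 0.046 with DESeq2 and 0.0015 without the filter, that on Bglap2 was -0.0498 with summed counts, and the knockdown effect on Slc20a1 between days was 0.022 with unstranded counts.

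Over all group pairs, replicate numbers did not pair the samples. Deviations of same-numbered samples correlated from -0.114 to 0.255, with 2 of 18 pairs above 0.1, against -0.239 to 0.136 for other numbers. Both pairs above 0.1 were of d5 Ctrl+vehicle with d5 Ctrl+FGF2 (0.221 for replicate 1 and 0.255 for replicate 2, with 0.0233 for replicate 3). For these 2 groups some pairing is therefore possible. With the replicate number as a block, calls with FGF2 went from 9243 to 9180 at d2.5 and from 6278 to 6352 at d5, and with knockdown from 3345 to 3226 and from 4220 to 4354. Under the block the d5 rises of Mgp (0.18, adjusted p = 0.059) and Bglap (0.99, adjusted p = 0.25) in Ctrl+FGF2 were lost, and the knockdown effect on Bglap between days passed (3.78, adjusted p = 0.034). Few reads stand behind Bglap and Bglap2 in all groups and behind Alpl in the d2.5 groups with FGF2.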
